A study of Mus musculus with 8 samples.

Results

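The set described here is 42 genes of the cell cycle and mitosis in mouse heart: cyclins and their kinase Cdk1, the replicative helicase, enzymes of deoxynucleotide supply, mitotic kinases, and proteins of the kinetochore, spindle and cleavage furrow. The genes were chosen by symbol from a list that was drawn up with earlier results of these same libraries known. What follows is therefore a description of these genes in these libraries. All 42 were among the 17190 genes of the table. The libraries came from the hearts of 8 male mice fed standard chow: 4 were wild type (hearts 2, 4, 5 and 6) and 4 carried a Gpihbp1 knockout (Gpihbp1-/-, hearts 1, 2, 3 and 4). Gpihbp1 is the capillary protein that carries lipoprotein lipase to the vessel lumen, and the study asked what its loss does to the heart. The labels give no age, strain, litter, collection day or design of the allele, so p-values measure only the spread between these hearts.

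A cell enters the cycle when D-type cyclins with Cdk4 or Cdk6, then E-type cyclins with Cdk2, inactivate the retinoblastoma protein and release E2F factors, which switch on replication genes. Later B-Myb and Foxm1 switch on the mitotic genes, whose products condense, align and separate the chromosomes before the anaphase-promoting complex ends mitosis. Mouse cardiomyocytes largely leave the cycle soon after birth, and most cells that divide in an adult heart are other cell types. In resting cells the DREAM complex holds many of these promoters silent through a short element called the cell cycle homology region (CHR), often found near CCAAT boxes, the site of NF-Y.

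Promoter letters are shown for 5 members because the levels below fall by role: Ccnb2, Cdk1 and Ube2c act in mitosis, Mcm6 in replication, and Cenpf is a kinetochore gene that did not follow the other members. RefSeq promoters of assembly GRCm38.p6, from 250 bases before to 50 after the start, matched 33 of 42 members; Ccnd1, Ccnd2, Ccne2, Foxm1, Mcm4, Ccna2, Aurkb, Kif20a and Tpx2 were not matched. Capitals mark the CHR letters TTTGAA or TTCGAA, the box CCAAT and the E2F letters TTTGGCGC, TTTCGCGC, TTTCCCGC, TTTGGCGG, TTTCCCGG or TTTCGCGG, each on either strand, and marks that overlap run together.
Ccnb2 (chr9:70421505-70421804, minus strand): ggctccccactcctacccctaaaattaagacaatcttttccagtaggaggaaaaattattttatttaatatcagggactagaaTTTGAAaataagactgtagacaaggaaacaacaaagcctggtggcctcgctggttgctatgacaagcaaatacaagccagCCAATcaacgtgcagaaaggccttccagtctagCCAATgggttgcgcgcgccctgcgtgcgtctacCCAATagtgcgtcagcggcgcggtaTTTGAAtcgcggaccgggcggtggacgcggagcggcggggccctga
Cdk1 (chr10:69352863-69353162, minus strand): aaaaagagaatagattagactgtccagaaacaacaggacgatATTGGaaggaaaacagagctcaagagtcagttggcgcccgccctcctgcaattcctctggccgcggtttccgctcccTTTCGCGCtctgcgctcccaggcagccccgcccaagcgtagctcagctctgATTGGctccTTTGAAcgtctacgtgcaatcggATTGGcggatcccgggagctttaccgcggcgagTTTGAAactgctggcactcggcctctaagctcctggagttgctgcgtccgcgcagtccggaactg
Ube2c (chr2:164769679-164769978, plus strand): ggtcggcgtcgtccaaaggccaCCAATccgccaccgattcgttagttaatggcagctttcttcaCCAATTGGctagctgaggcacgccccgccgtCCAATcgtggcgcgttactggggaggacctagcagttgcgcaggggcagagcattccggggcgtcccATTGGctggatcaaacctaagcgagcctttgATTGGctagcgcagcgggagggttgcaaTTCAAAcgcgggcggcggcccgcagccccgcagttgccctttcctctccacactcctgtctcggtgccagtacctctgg
Mcm6 (chr1:128359656-128359955, minus strand): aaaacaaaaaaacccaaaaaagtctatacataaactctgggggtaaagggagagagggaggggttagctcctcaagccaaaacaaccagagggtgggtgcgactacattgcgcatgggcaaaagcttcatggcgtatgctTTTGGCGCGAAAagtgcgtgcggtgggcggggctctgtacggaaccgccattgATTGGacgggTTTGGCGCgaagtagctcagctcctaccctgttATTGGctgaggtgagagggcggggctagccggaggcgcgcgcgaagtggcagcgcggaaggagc
Cenpf (chr1:189688037-189688336, minus strand): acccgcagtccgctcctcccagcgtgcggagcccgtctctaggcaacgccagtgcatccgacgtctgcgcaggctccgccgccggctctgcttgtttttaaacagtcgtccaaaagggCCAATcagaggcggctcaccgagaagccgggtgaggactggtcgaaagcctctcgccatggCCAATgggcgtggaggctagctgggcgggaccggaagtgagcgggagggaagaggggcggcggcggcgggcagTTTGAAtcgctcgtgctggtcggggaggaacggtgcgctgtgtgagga

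CHR letters occurred in 19 of 33 members (57.6%) and in 19.4% of 27025 promoters of the same length. CCAAT occurred in 26 (78.8%) against 37.9%, and both together in 18 (54.5%) against 7.7%. E2F letters occurred in 6 members (18.2%) against 3.87%: the helicase genes Mcm3, Mcm5, Mcm6 and Mcm7, and Cdk1 and Birc5. In Mcm6 2 of the 3 E2F matches overlap each other. Ccnb1, whose mitotic role is the closest to that of Ccnb2, held CCAAT and no CHR letters in this window. A match is a run of letters, not a measured site.

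Estimated read counts per library totalled 9065553 to 11477297 in 6 hearts and 13492957 and 13443527 in wild-type 2 and knockout 2. Levels are given as CPM, counts relative to library size after TMM scaling (trimmed mean of M-values). Gpihbp1 itself drew 1108, 1951, 833 and 1783 reads from wild-type hearts 2, 4, 5 and 6, and 0, 0, 1 and 0 from knockout hearts 1 to 4, which matches the labels. All 11 cardiomyocyte markers were read in every library. Wild-type 2 and knockout 2 stood apart from the other 6 hearts in most members. The split was not confined to the members: 22.2% of all tested genes were highest in these 2 hearts. Over tested genes, their deviations from the means of their genotypes had a correlation of 0.908. The genotype results of the members are given with and without these 2 hearts. Wild-type 6 has the lowest TMM factor, 0.678 against 0.964 to 1.16 in the others, so its rank among the hearts depends on the scale. The 4 markers of atrial muscle summed to 2112 TPM in wild-type 6 and to 3.22 to 5.67 in the other 7 hearts. The members are therefore also given without it, and its part in their values was not tested.

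The widest split in the cell cycle genes lay within the genotypes: 1 heart of each stood above the rest. In wild-type 2 and knockout 2, 39 of 42 members were higher than in every other heart, or 34 of the 37 members that passed the count filter, against 22.2% of the 12826 tested genes. The lower of these 2 hearts stood at least 4-fold above the highest of the other 6 for 28 of 42 members and 23 of 37, against 2.29% of tested genes. The 3 exceptions were the D-type cyclins Ccnd1 and Ccnd2 and the kinetochore gene Cenpf. On the authors' deposited TPM, a level with gene length divided out, the same held for 40 and 29 of 42. Ccnd1 is the exception that changes with the scale: it stood at 52.8 and 48.8 TPM in these 2 hearts and at most 47.4 elsewhere. These counts describe the libraries and carry no test, since no label sets these hearts apart. In bulk tissue, more cells of a kind and more RNA per cell cannot be told apart.

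**Figure D1:**
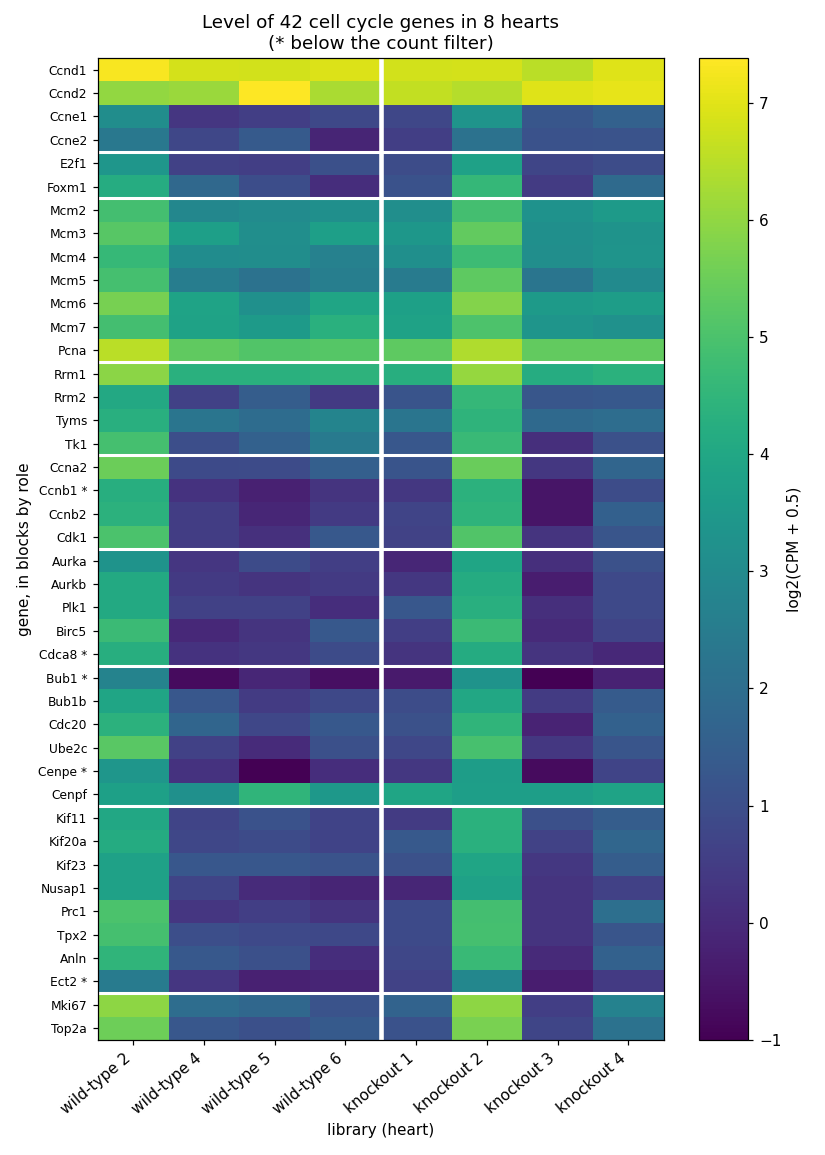
Each row is 1 of the 42 genes, in blocks by role, each column 1 heart, and colour is log2(CPM + 0.5); an asterisk marks the 5 genes below the count filter. Wild-type 2 and knockout 2 are the bright columns in 39 rows, and Ccnd1, Ccnd2 and Cenpf are the rows where they are not both the highest.

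The cyclins of G1 divided by type. Ccnd1, a D-type cyclin that couples growth signals to Cdk4 and Cdk6, stood at 157, 113, 111 and 121 CPM in wild-type hearts 2, 4, 5 and 6, and at 113, 114, 91.9 and 125 CPM in knockout hearts 1, 2, 3 and 4. Its highest heart was wild-type 2, while knockout 2 lay among the others. Ccnd2, its close relative, stood at 64.1, 69.00, 166 and 78.98 CPM in those wild-type hearts and 97.3, 87.2, 126 and 135 CPM in those knockout hearts. Here wild-type 5 was highest and wild-type 2 lowest, and the genotypes overlapped. Ccne1, the E-type cyclin that starts replication with Cdk2, stood at 8.22, 0.760, 0.960 and 1.26 CPM in those wild-type hearts and 1.24, 9.58, 1.86 and 2.54 CPM in those knockout hearts. Both hearts numbered 2 were above the rest, 8.56 and 5.15 times the median of the other 3 hearts of their genotype, a ratio used in this form below. Ccne2 had ratios of 3.72 and 2.37.

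E2f1, which drives genes of replication, stood at 10.1, 1.046, 0.960 and 1.55 CPM in wild-type hearts 2, 4, 5 and 6, and at 1.42, 13.3, 1.17 and 1.41 CPM in knockout hearts 1, 2, 3 and 4. Foxm1, which drives the mitotic genes, stood at 17.8, 3.04, 1.48 and 0.562 CPM in those wild-type hearts and 1.68, 23.4, 0.881 and 3.20 CPM in those knockout hearts. For both factors the 2 highest hearts were wild-type 2 and knockout 2, with ratios of 9.66 and 9.38 for E2f1 and 12.01 and 13.9 for Foxm1.

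Replication genes were readily detected in all 8 hearts and were a few times higher in the same 2. Mcm6, a subunit of the ring-shaped helicase that unwinds DNA, stood at 49.6, 14.1, 8.73 and 14.6 CPM in wild-type hearts 2, 4, 5 and 6, and at 13.2, 55.98, 11.3 and 12.2 CPM in knockout hearts 1, 2, 3 and 4. Mcm7, another subunit, stood at 29.05, 13.7, 11.3 and 19.7 CPM in those wild-type hearts and 13.6, 32.5, 9.79 and 8.95 CPM in those knockout hearts. Pcna, the sliding clamp of the polymerases, which also serves DNA repair, stood at 90.5, 39.7, 34.2 and 35.4 CPM in those wild-type hearts and 39.00, 83.8, 40.4 and 40.4 CPM in those knockout hearts. Across the 6 Mcm genes and Pcna all 7 were highest in wild-type 2 and knockout 2, but their ratios were modest, 2.12 to 5.54 in wild-type 2 and 2.07 to 7.51 in knockout 2, and Mcm5 was the highest in each. None reached a 4-fold gap to the highest of the other hearts.

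The enzymes of deoxynucleotide supply differed among themselves. Rrm1, the large subunit of ribonucleotide reductase, stood at 60.1, 19.6, 19.4 and 20.9 CPM in wild-type hearts 2, 4, 5 and 6, and at 18.4, 65.3, 17.7 and 20.1 CPM in knockout hearts 1, 2, 3 and 4, with ratios of 3.07 and 3.55. Rrm2, the small subunit, whose protein is degraded in mitosis, stood at 16.3, 1.046, 2.27 and 0.843 CPM in those wild-type hearts and 1.77, 23.4, 1.86 and 1.98 CPM in those knockout hearts, with ratios of 15.6 and 12.6. The 2 subunits of 1 enzyme thus stood several times apart in this measure, Rrm2 running from 0.843 to 2.27 CPM in the other 6 hearts while Rrm1 stayed at 17.7 or above. Tk1, the thymidine kinase of S phase, stood at 29.3, 1.52, 2.53 and 4.92 CPM in those wild-type hearts and 1.95, 24.9, 0.587 and 1.60 CPM in those knockout hearts. Tyms, which makes thymidylate, had ratios of 4.48 and 6.14.

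The cyclins that act from S phase to mitosis, and their kinase, gave ratios of 24.2 to 33.6 in wild-type 2 and 18.6 to 32.2 in knockout 2. Ccna2, which works in both S phase and mitosis, stood at 44.9, 1.33, 1.40 and 2.39 CPM in wild-type hearts 2, 4, 5 and 6, and at 1.77, 43.2, 0.783 and 2.83 CPM in knockout hearts 1, 2, 3 and 4. Ccnb2, a B-type cyclin, stood at 20.4, 0.950, 0.437 and 0.843 CPM in those wild-type hearts and 1.15, 21.3, 0.196 and 2.45 CPM in those knockout hearts. Cdk1, the kinase that both activate, stood at 31.9, 0.950, 0.611 and 1.97 CPM in those wild-type hearts and 1.06, 34.1, 0.685 and 1.79 CPM in those knockout hearts. In each of these genes the 2 high hearts were close to each other and the other 6 had 2 to 30 reads. Ccnb1, the other B-type cyclin, was below the count filter, with 266 and 313 reads in the 2 high hearts and 2 to 15 reads elsewhere.

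Mitotic kinases and the chromosomal passenger complex, which corrects faulty attachments of chromosomes to the spindle, gave ratios of 9.63 to 36.7 in wild-type 2 and 14.4 to 26.2 in knockout 2. Plk1, the kinase of centrosome maturation and mitotic entry, stood at 16.7, 1.046, 1.048 and 0.562 CPM in wild-type hearts 2, 4, 5 and 6, and at 1.95, 18.97, 0.587 and 1.32 CPM in knockout hearts 1, 2, 3 and 4. Aurkb, the kinase of the passenger complex, stood at 16.7, 0.855, 0.699 and 0.843 CPM in those wild-type hearts and 0.796, 17.5, 0.294 and 1.32 CPM in those knockout hearts. Birc5 (survivin), its partner, stood at 25.6, 0.475, 0.699 and 1.97 CPM in those wild-type hearts and 0.973, 25.5, 0.489 and 1.13 CPM in those knockout hearts. Aurka, the spindle pole kinase, had ratios of 9.63 and 24.8, and its level in knockout 2 was 1.54 times that in wild-type 2. Cdca8 (borealin), also of the passenger complex, was below the filter, with 265 and 267 reads in the high hearts and 5 to 10 elsewhere.

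Genes of the spindle checkpoint and the anaphase-promoting complex spanned the widest range of ratios of any role, 1.21 to 44.6 in wild-type 2 and 0.899 to 35.4 in knockout 2, from Cenpf to Bub1. Ube2c, the ubiquitin-conjugating enzyme of that complex, stood at 37.1, 1.046, 0.524 and 1.55 CPM in wild-type hearts 2, 4, 5 and 6, and at 1.24, 29.99, 0.783 and 1.79 CPM in knockout hearts 1, 2, 3 and 4. Cdc20, its activator, stood at 20.4, 2.85, 1.22 and 1.97 CPM in those wild-type hearts and 1.59, 21.7, 0.392 and 2.54 CPM in those knockout hearts. Bub1b, a checkpoint protein that holds Cdc20 in check, stood at 14.6, 1.90, 0.873 and 1.26 CPM in those wild-type hearts and 1.42, 15.9, 0.881 and 2.17 CPM in those knockout hearts. All 3 followed wild-type 2 and knockout 2. The checkpoint kinase Bub1 and the kinetochore motor Cenpe were below the filter: Bub1 had 90 and 143 reads in the high hearts and 0 to 5 elsewhere, and Cenpe had 146 and 187 against 0 to 12. Cenpf, a large kinetochore and nuclear matrix protein, stood at 12.96, 8.84, 21.7 and 10.7 CPM in those wild-type hearts and 14.8, 12.5, 12.3 and 13.9 CPM in those knockout hearts. Its ratios were 1.21 and 0.899, its highest heart was wild-type 5, and its promoter held 1 CHR match and 2 CCAAT boxes, as printed above.

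The 8 genes of the spindle and cytokinesis gave ratios of 7.07 to 41.5 in wild-type 2 and 8.05 to 22.3 in knockout 2. Prc1, which bundles midzone microtubules, stood at 31.6, 0.760, 0.960 and 0.703 CPM in wild-type hearts 2, 4, 5 and 6, and at 1.33, 28.7, 0.685 and 3.67 CPM in knockout hearts 1, 2, 3 and 4. Tpx2, which activates Aurka on the spindle, stood at 29.3, 1.52, 1.31 and 1.26 CPM in those wild-type hearts and 1.33, 29.6, 0.685 and 1.79 CPM in those knockout hearts. Anln (anillin), a scaffold of the cleavage furrow, stood at 21.8, 1.996, 1.57 and 0.562 CPM in those wild-type hearts and 1.24, 25.3, 0.489 and 2.54 CPM in those knockout hearts. Each had its 2 highest values in wild-type 2 and knockout 2. Of the motors, Kif11, which pushes the spindle poles apart, reached 15.7 and 19.8 CPM in those hearts, Kif20a 17.2 and 19.6, and Kif23 13.4 and 14.8, with at most 2.92 for any of the 3 elsewhere. Nusap1, a microtubule-binding protein, reached 13.4 and 13.5 CPM. Ect2, the exchange factor that activates RhoA at the furrow, was below the filter, with 74 and 104 reads against 3 to 12 elsewhere.

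The 2 general markers of dividing cells showed the same picture. Mki67, which coats mitotic chromosomes, stood at 62.3, 3.52, 2.97 and 1.69 CPM in wild-type hearts 2, 4, 5 and 6, and at 2.65, 62.1, 0.979 and 6.03 CPM in knockout hearts 1, 2, 3 and 4. Top2a, the topoisomerase that untangles replicated DNA, stood at 46.1, 1.90, 1.57 and 2.11 CPM in those wild-type hearts and 1.68, 51.7, 1.17 and 3.96 CPM in those knockout hearts. The ratios were 20.98 and 23.4 for Mki67 and 24.3 and 30.8 for Top2a. Knockout 4 was the next highest heart for both genes. On CPM knockout 3 was the lowest, and on TPM wild-type 6 was, at 0.10 for Mki67 and 0.23 for Top2a.

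The size of the ratio differed by role. Median ratios in wild-type 2 and knockout 2 were 3.04 and 3.32 for helicase and clamp, 8.02 and 9.37 for nucleotide supply, and 30.00 and 25.1 for the S and M phase cyclins with Cdk1. They were 19.8 and 24.8 for mitotic kinases, 14.8 and 14.5 for checkpoint and anaphase genes, and 13.9 and 16.1 for spindle and cytokinesis. Grouped by promoter letters, the 19 members with CHR letters had medians of 13.9 and 18.6, and the 14 without had 9.11 and 8.45. The ranges overlapped almost fully, 1.21 to 44.6 and 2.56 to 36.7 in wild-type 2, with Cenpf lowest in the first group and Birc5 highest in the second. The groups also differed in role: the 14 held Mcm3, Mcm5, Mcm6, Pcna, Rrm1, Rrm2, Tyms and Tk1 of replication, the 19 Mcm2 and Mcm7. The mitotic members without CHR letters, Ccnb1, Birc5, Cenpe and Nusap1, had ratios of 27.8, 36.7, 18.1 and 25.7 in wild-type 2. In knockout 2 these were 25.8, 26.2, 15.4 and 19.6. The part of the letters apart from role was not tested. These are descriptions of 2 libraries.

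**Figure D2:**
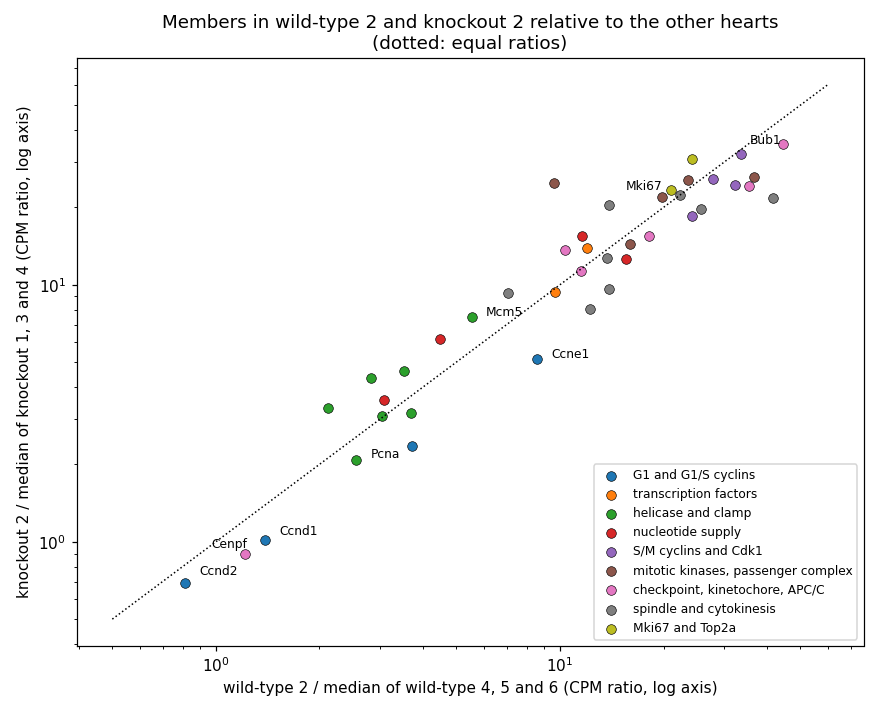
Each point is 1 gene, coloured by role; both log axes give its CPM in heart 2 divided by the median of the other 3 hearts, for the wild type (horizontal) and the knockout (vertical). Points lie along the dotted line of equal ratios, from Ccnd2 at 0.811 and 0.691 to Bub1 at 44.6 and 35.4.

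Wild-type 2 and knockout 2 were also alike in the height they reached. The level in knockout 2 divided by that in wild-type 2 ran from 0.728 (Ccnd1) to 1.54 (Aurka), with a median of 1.10 over the 42 members and 1.01 over all tested genes. Knockout 2 was the higher for 31 members and wild-type 2 for 11. Per length, the members with the highest TPM in these hearts were Pcna (104 and 122), Ube2c (62.9 and 64.9), Ccnd1 (52.8 and 48.8) and Birc5 (36.3 and 45.9). In the other 6 hearts Ube2c was at 1.12 to 3.40 TPM and Pcna at 18.6 to 51.96. Summed TPM of the 23 mitotic members was 277 and 352 in wild-type 2 and knockout 2 and 7.81 to 25.5 elsewhere. That of the 11 replication members was 251 and 325 against 38.8 to 91.8, so mitotic transcripts equalled 1.10 and 1.085 times the replication transcripts in these 2 hearts and 0.115 to 0.282 times in the others.

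Markers of some other cell types moved with the members. Of 10 macrophage and monocyte markers, 10 were highest in wild-type 2 and knockout 2, at a summed 5064 and 4234 TPM against 398 to 788 in the other 6 hearts. Of 7 activated fibroblast markers 5 were, at 1052 and 1186 against 55.4 to 190.3. Of 9 fibroblast markers 6 were highest and 1 was lowest in these 2 hearts, with sums of 2615 and 3512 against 862 to 1817. Cardiomyocyte markers were lower there, at 58922 and 60816 against 118000 to 134940 TPM. Of the 8 endothelial markers 4 were lowest in these 2 hearts and 0 highest, and of the 9 lymphocyte markers 0 were highest. Of 7 mural markers 1 was highest and 2 were lowest there. Of 7 neutrophil markers 1 was highest, and 0 of the 4 atrial or 5 adipocyte markers were. Over all tested genes the share highest there was 22.2%. The neutrophil sums of the 2 hearts differed, at 62.3 TPM in wild-type 2 and 513 in knockout 2. Elsewhere these sums ran from 15.95 to 368 TPM, the highest of them in knockout 3. Defining markers at 0 in at least 1 library were Ly6c2 among monocyte, Cd3e and Cd3d among lymphocyte, Ly6g among neutrophil, and Myl7, Sln and Bmp10 among atrial markers, and all 5 adipocyte markers. By group, the summed macrophage markers ran from 398 to 5064 TPM in the wild type and 668 to 4234 in the knockout. The part of these cell types, and of the larger read totals of the 2 hearts, in the level of the cell cycle genes was not tested.

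**Figure D3:**
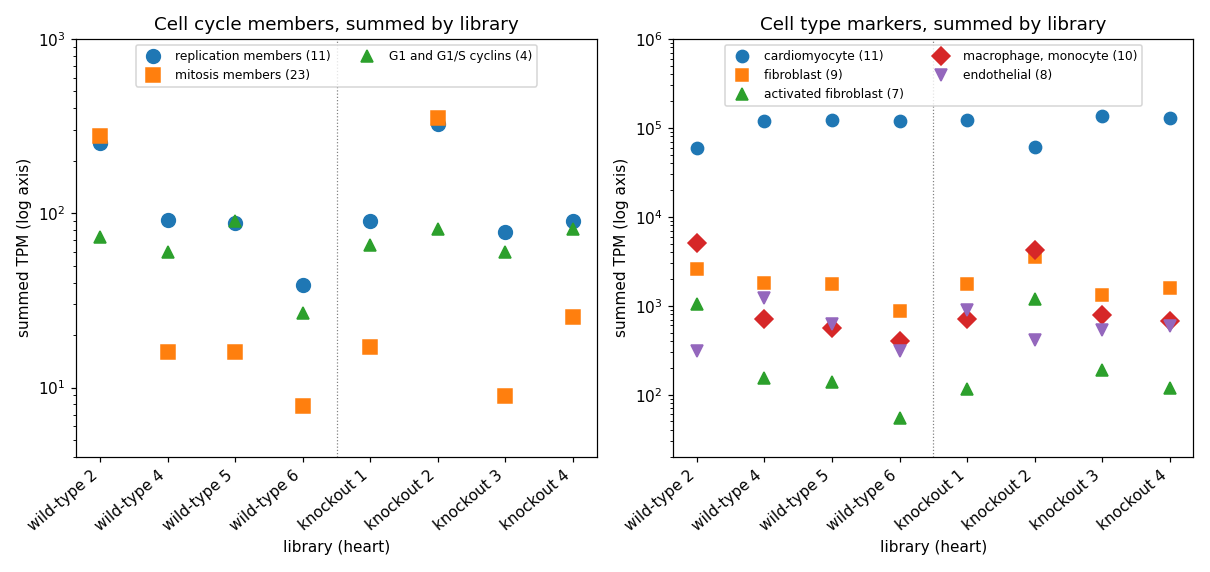
Each column is 1 heart and each point the summed TPM of a list (number of genes in brackets) on a log axis, cell cycle members at left and cell type markers at right. Mitosis members reach 277 and 352 TPM in wild-type 2 and knockout 2 and at most 25.5 elsewhere, while the 4 G1 and G1/S cyclins stay between 26.7 and 90.5 in all 8.

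Between the genotypes, 0 of 37 tested members passed an adjusted p of 0.05 in edgeR's quasi-likelihood test, where 0.0312% of all tested genes passed, and 0 had an unadjusted p under 0.05, where 0.904% did. DESeq2 also called 0 members. It gave no p-value to many of them, Mki67, Top2a and Cdk1 among them, so those could not be called. Groups did not overlap for 0 of 37, against 0.632% of tested genes. For 34 of the 37, however, 1 high heart in each genotype stood above all the remaining hearts, so the groups had to overlap. For those members the 0 cannot speak to genotype, and only the rest of the 37 were free to separate. The log2 fold change, knockout minus wild type, was positive for 25 and negative for 12, with a median of 0.049 beside -0.019 over all tested genes, and ran from -0.39 (Tk1) to 0.49 (Rrm2). With 1 heart of each genotype high, the errors were wide for mitotic genes: Mki67 averaged 17.6 ± 29.8 CPM over the wild-type hearts and 17.9 ± 29.5 over the knockout hearts (SD, n = 4 per genotype), giving a log2 fold change of 0.023 (SE 1.40, 95% interval -3.13 to 3.17). Top2a had 0.17 (SE 1.42, 95% interval -3.01 to 3.36) and Cdk1 had 0.084 (SE 1.48, 95% interval -3.25 to 3.42). With all 8 hearts in the fit, these intervals leave room for changes of 8-fold in either direction.

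The 3 members that did not follow the pair of high hearts had narrower intervals. Ccnd1 was at 126 ± 21.3 and 111 ± 13.9 CPM, with a log2 fold change of -0.18 (SE 0.22, 95% interval -0.67 to 0.31). Ccnd2 had 0.24 (SE 0.34, 95% interval -0.53 to 1.005), and Cenpf had -0.019 (SE 0.29, 95% interval -0.68 to 0.64). Of replication genes, which did follow the pair but by less, Pcna had 0.026 (SE 0.39, 95% interval -0.86 to 0.91), Mcm6 had 0.089 (SE 0.68, 95% interval -1.44 to 1.62) and Rrm1 had 0.017 (SE 0.54, 95% interval -1.20 to 1.23). Each interval held 0, and the edgeR adjusted p was 0.99998 for every tested member. With no count filter all 42 members were tested and 0 passed in edgeR, with a lowest unadjusted p of 0.490.

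Leaving out 1 heart shows how far these values hang on it. Without wild-type 2 the median log2 fold change of the tested members was 1.95, and without knockout 2 it was -1.62; no member passed in either fit. Without both, 34 members were tested, their median was 0.14 beside -0.034 over all genes, 22 were positive and 12 negative, and 0 passed in edgeR (0 also at an unadjusted p under 0.05), where 0.0235% of 12766 genes did. The intervals of Mki67 and Top2a then narrowed, to -1.14 to 1.58 for Mki67 (log2 fold change 0.22) and -0.83 to 1.41 for Top2a (0.29). The others named above had Cdk1 0.066 (-1.22 to 1.35), Ccnd1 -0.065 (-0.63 to 0.50), Ccnd2 0.19 (-0.64 to 1.02), Cenpf -0.0077 (-0.80 to 0.78), Pcna 0.13 (-0.36 to 0.62), Mcm6 -0.028 (-0.65 to 0.60) and Rrm1 -0.091 (-0.58 to 0.39). Of these, the intervals of Ccnd1, Ccnd2 and Cenpf, which had not followed the pair, were wider than with all 8 hearts. The largest differences, up and down, were Prc1 at 1.20 (interval -0.23 to 2.63) and Tk1 at -1.06 (-2.34 to 0.21). Among these 6 hearts the knockout lay wholly above the wild type for 3 of 34 members, Ccne1, Mcm2 and Mcm4, against 2.25% of genes, and wholly below for 0, against 2.34%. Without wild-type 6 as well, 37 members were tested, 0 passed, and the median was 0.10; without wild-type 6 alone, 40 were tested, 0 passed, and it was -0.16. In the fit of 6 hearts Ccne1 came closest to the threshold, at a log2 fold change of 0.93 (interval -0.068 to 1.93, edgeR unadjusted p = 0.0643, adjusted p = 0.99998).

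**Figure D4:**
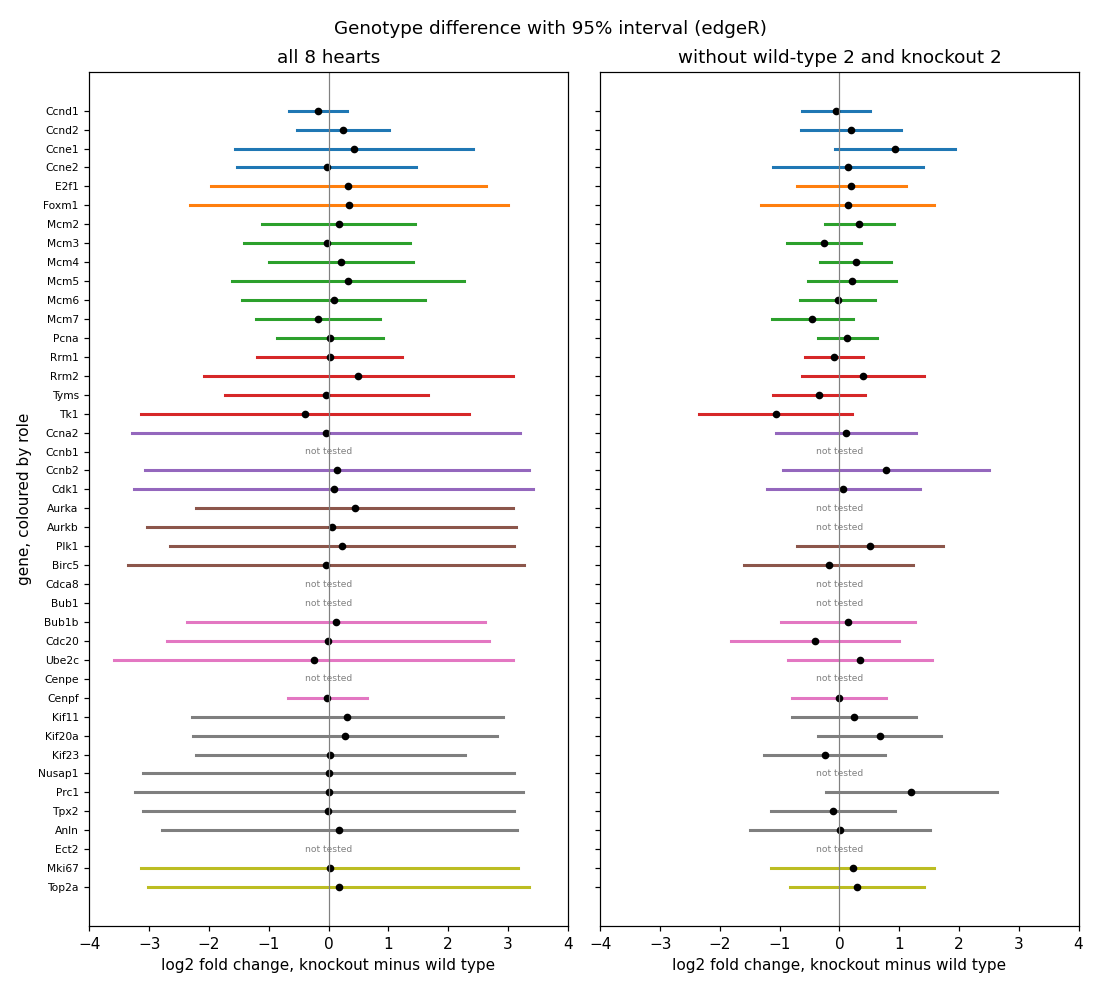
Points are log2 fold changes (knockout minus wild type) and bars their 95% intervals from the edgeR fit, coloured by role, over all 8 hearts at left and without wild-type 2 and knockout 2 at right. At left the bar of Mki67 runs from -3.13 to 3.17 and at right from -1.14 to 1.58; Cenpf has a short bar in both, and every bar crosses 0.

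Within the 6 hearts that were low, the members still varied. On CPM, knockout 4 was the highest of the 6 for 22 of 42 members, against 7.36% of tested genes, and knockout 3 the lowest for 18, against 8.66%. The lowest place depends on the scale, and the count was not made on TPM. On TPM wild-type 6 was below knockout 3 for Mki67 (0.10 and 0.13), Top2a (0.23 and 0.28) and Prc1 (0.16 and 0.34). It was above knockout 3 for Ccnb2 (0.35 and 0.18). For example, Prc1 stood at 3.67 CPM in knockout 4 and 0.685 in knockout 3, and Ccnb2 at 2.45 and 0.196, which rest on 26 and 2 reads. These are hearts of the same genotype, and they were singled out after the values were seen.

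Other genes of the pathway gave the same split between mitosis and the rest. In none of the 6 lists below did a gene have an edgeR unadjusted p under 0.05, where 0.904% of all tested genes did. Of 69 further mitosis genes, 65 were highest in wild-type 2 and knockout 2 and 47 by at least 4-fold. Here and in the lists below, the 4-fold counts include genes below the count filter, while the 2.29% is over tested genes. Some of these mitosis genes had no reads in at least 1 library. Of the 35 that passed the count filter and were tested, 31 were highest there. Of these 35, 0 rose and 0 fell between the genotypes in edgeR, where 0.0312% of all tested genes passed, with a median log2 fold change of 0.12. Here and in the lists below, genes highest in the pair had 1 high heart in each genotype, so their 0 says little about genotype. The 3 most abundant per length were Pttg1 (securin), Tubb5 and Tuba1c, and Pttg1 was an exception, at 67.4, 88.2, 87.9 and 179.6 CPM in wild-type hearts 2, 4, 5 and 6, and at 101, 53.03, 98.1 and 99.00 CPM in knockout hearts 1, 2, 3 and 4. Its lowest hearts were the pair in which the cyclins were highest. Tubb5 and Tuba1c, tubulins, reached 593 and 632 and 203 and 217 CPM in that pair. Of 47 genes of origin licensing and the fork, 28 were highest there and 8 by at least 4-fold; over all tested genes those shares were 22.2% and 2.29%. Of the 47, 40 were tested, and 21 of these were highest in the pair. Between the genotypes 0 rose and 0 fell, and the median was -0.041. Gmnn (geminin), which blocks relicensing of origins, ran from 33.7 to 61.7 CPM without following the pair, and the single-strand binding proteins Rpa1 and Rpa3 had log2 fold changes of -0.095 and -0.36.

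The kinases and factors upstream were flatter. Of 10 further genes of G1 machinery 5 were highest in the pair and 2 by at least 4-fold, and of 16 E2F, MYB and MuvB genes 10 were and 3 by that much, with 0 and 2 lowest in the pair; 22.2% of all tested genes were highest there and 2.29% by 4-fold. Of 9 and 15 tested, 5 and 9 were highest in the pair, and 0 rose and 0 fell between the genotypes. Cdk4, the kinase of D-type cyclins, stood at 112, 55.8, 47.8 and 89.1 CPM in wild-type hearts 2, 4, 5 and 6, and at 56.5, 108, 49.9 and 61.2 CPM in knockout hearts 1, 2, 3 and 4. Ccnd3, the remaining D-type cyclin, reached 188 and 152 CPM in the pair, but was highest in wild-type 6 at 214. That rank changes with the scale: on TPM the pair was highest, at 146 and 135 against at most 92.4 elsewhere. E2f4, an E2F of resting cells, was highest in the pair by a small margin, at 39.1 and 39.97 CPM against 27.3 to 35.98 elsewhere. On TPM it was not, with wild-type 2 at 26.1 and wild-type 5 at 27.2. E2f6, a repressor, was lowest in the pair on CPM, at 44.1 and 42.7, while on TPM wild-type 6 was lowest, at 22.6. Fzr1, the other activator of the anaphase-promoting complex, and the histone chaperone Rbbp4 had log2 fold changes of 0.11 and -0.054. Rbbp4 was also highest in the pair by a small margin, at 100.6 and 91.3 CPM against at most 89.15 elsewhere. On TPM it was not, with wild-type 2 at 28.2 and wild-type 5 at 31.1.

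Brakes of the cycle went in both directions. Cdkn1a (p21), the inhibitor induced by p53, stood at 97.2, 54.4, 29.1 and 72.8 CPM in wild-type hearts 2, 4, 5 and 6, and at 32.7, 98.97, 23.3 and 47.3 CPM in knockout hearts 1, 2, 3 and 4. Cdkn1c (p57), an inhibitor of differentiated cells, stood at 6.34, 42.96, 21.7 and 15.04 CPM in those wild-type hearts and 42.5, 4.73, 24.1 and 23.2 CPM in those knockout hearts. Cdkn1b (p27) stood at 16.9, 26.5, 30.7 and 7.87 CPM in those wild-type hearts and 28.5, 19.2, 23.9 and 22.04 CPM in those knockout hearts. Of the 21 listed brakes 8 were highest in the pair, where 22.2% of all tested genes were, and 2 were lowest. The share of all genes lowest in the pair was not counted, for this or the other lists. Here p21 was highest and p57 lowest in the pair with high cyclins, while p27 was lower there than in 5 other hearts and lowest in wild-type 6. Gadd45g, a stress-induced growth arrest gene, reached 82.6 and 56.3 CPM in the pair against at most 22.2 elsewhere, and Ccng1, a p53 target, was at 419.8 and 446 against 379.6 to 1000.3. Of 20 tested brakes 0 rose and 0 fell between the genotypes, with 15 positive and 5 negative and a median log2 fold change of 0.12. Among 15 growth signals, 0 rose and 0 fell; 4 were highest and 4 lowest in the pair, where 22.2% of all tested genes were highest. Ccn2, a matrix protein and target of the Hippo pathway factor Yap1, was at 479.6 and 458 CPM there against 59.9 to 98.8 elsewhere. Ccn1, another such target, was also highest there on CPM, at 86.3 and 108 against 25.3 to 83.5 elsewhere. On TPM wild-type 2, at 56.5, was below wild-type 5 and knockout 4, at 57.95 and 61.2. Yap1 itself was lowest in the pair on CPM, at 75.99 and 77.6 against 84.9 to 128 elsewhere, while on TPM wild-type 6 was lowest, at 11.8.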

How the data were processed

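Polyadenylated RNA of 8 male hearts was read as strand-specific paired-end libraries, per the labels' protocols, 1 paragraph of which names rat tissue. HISAT, Bowtie2 and the build GRCm39 appear in the submitters' processing notes, and the sources used here do not give the read counter. A deposited table from the authors holds estimated counts, TPM and FPKM per library, per the file headers. FPKM and 8 empty columns were not used. TPM entered sums and levels, never a test.

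Groups came from the titles. Estimated counts were rounded and kept by filterByExpr (minimum count 10, total 15), which left 12826 of 17190 genes. The test was edgeR 4.0.16 (R 4.3.3), TMM scaling, robust quasi-likelihood F-test without covariates, Benjamini-Hochberg over all genes, threshold 0.05. Standard errors are the log2 fold change over the root of F, and 95% intervals use the fit's degrees of freedom. Between-heart variation (biological coefficient) was 43.7%. All pairs of libraries differed beyond sampling noise (chi-square per degree of freedom at least 7.29). The fit was tested on simulated counts.

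Members and all gene lists were chosen with earlier results of these data known. The erythroid and the Schwann and neuronal marker lists are not reported here. Values in every heart are given for Mki67, Top2a, E2f1, Foxm1 and up to 3 tested members of each role with the highest mean TPM, and the pathway lists are named by their 3 highest, by heart, range or fold change, plus Cdkn1a, Cdkn1b and Cdkn1c; other values named, Cenpf among them, were picked after they were seen. Alternatives were RLE and total-count scaling, no and strict (1 CPM) filters, DESeq2 1.42.0, left-out hearts and a block on heart number. Promoter letters were searched on both strands of the 300-base windows, the first of 2 for 3 members. Totals ranged from 9065553 to 13492957 counts, and with no molecular identifiers named in the labels, reads were not taken as independent molecules.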

Additional observations from a re-analysis of the deposited data

Results flagged for a closer look

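In each genotype the gap between the highest or lowest heart and its neighbour was divided by the group's range. Values past Dixon's 95% critical value for 4 samples stand alone and are given here. Of 126 groups examined 77 did so, where chance gives about 1 in 20; the genes share their hearts, so these are not independent.

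The groups were 25 of the 42 members, 20 other pathway genes and 18 sums, each in both genotypes. Wild-type 2 stood alone on the high side for 22 of these 25 members, with a gap of 0.932 for Ccne1, 0.936 for E2f1, 0.856 for Foxm1, 0.856 for Mcm6, 0.902 for Pcna, 0.962 for Rrm1, 0.908 for Rrm2, 0.877 for Tk1, 0.976 for Ccna2, 0.974 for Ccnb2, 0.957 for Cdk1, 0.99 for Aurkb, 0.97 for Plk1, 0.941 for Birc5, 0.925 for Bub1b, 0.915 for Cdc20, 0.972 for Ube2c, 0.992 for Prc1, 0.991 for Tpx2, 0.932 for Anln, 0.97 for Mki67 and 0.988 for Top2a. For other pathway genes the gap was 0.865 for Tubb5, 0.905 for Tuba1c and 0.907 for Ccn2, and for summed TPM it was 0.88 for cell cycle transcription factors, 0.877 for deoxynucleotide supply, 0.98 for S and M phase cyclins and Cdk1, 0.98 for mitotic kinases and the chromosomal passenger complex, 0.957 for spindle checkpoint, kinetochore and anaphase-promoting complex, 0.943 for spindle, midzone and cytokinesis, 0.963 for chromosome coat and topoisomerase, 0.916 for cardiomyocyte, 0.9 for activated fibroblast and 0.931 for macrophage and monocyte. Wild-type 5 stood alone for Ccnd2, at 0.854, and wild-type 6 for summed atrial markers, at 0.999.

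Knockout 2 stood alone on the high side for 22 of the 25 members, with a gap of 0.844 for Ccne1, 0.98 for E2f1, 0.897 for Foxm1, 0.957 for Mcm6, 0.968 for Pcna, 0.951 for Rrm1, 0.99 for Rrm2, 0.944 for Tk1, 0.952 for Ccna2, 0.893 for Ccnb2, 0.967 for Cdk1, 0.94 for Aurkb, 0.926 for Plk1, 0.974 for Birc5, 0.915 for Bub1b, 0.899 for Cdc20, 0.966 for Ube2c, 0.894 for Prc1, 0.962 for Tpx2, 0.917 for Anln, 0.917 for Mki67 and 0.945 for Top2a. Among other pathway genes knockout 2 was alone on the low side for Pttg1, at 0.938, and on the high side with 0.948 for Tubb5, 0.94 for Tuba1c, 0.933 for Ccnd3, 0.855 for Gadd45g and 0.98 for Ccn2. For summed TPM the gap was 0.939 for cell cycle transcription factors, 0.944 for replicative helicase and clamp, 0.962 for deoxynucleotide supply, 0.939 for S and M phase cyclins and Cdk1, 0.975 for mitotic kinases and the chromosomal passenger complex, 0.948 for spindle checkpoint, kinetochore and anaphase-promoting complex, 0.936 for spindle, midzone and cytokinesis, 0.94 for chromosome coat and topoisomerase, 0.835 for cardiomyocyte, 0.929 for activated fibroblast and 0.966 for macrophage and monocyte. Knockout 3 stood alone for summed atrial markers, at 0.865, where all 4 knockout hearts were at 3.22 to 5.67 TPM. Cardiomyocyte sums stood alone on the low side and the other sums named for wild-type 2 and knockout 2 on the high side. The part of other cell types in these values was not tested.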

How the results depend on the processing

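The count of members past the threshold was 0 under every alternative run, though DESeq2 gave many members no p-value and could not call those. All genes past it numbered 4, 8 with DESeq2, 168 with heart number as a block and 2 to 3 with 1 heart left out (2 without wild-type 4 or wild-type 5). The block is not a pairing: no label ties hearts with 1 number, and only numbers 2 and 4 occur in both genotypes, with correlations of deviations of 0.908 and 0.110; the fit has 1 residual degree of freedom among hearts before the spread is shared across genes. The members' median log2 fold change ran from -1.62 to 1.95 with 1 heart left out. Named genes whose sign turned, none past the threshold in either fit, had these log2 fold changes: RLE scaling, Tubb5 -0.011, E2f4 -0.0071; total-count scaling, Ccna2 0.058, Birc5 0.078, Cdc20 0.087, Tpx2 0.091, Rpa1 0.070, Cdk4 0.0067, Rbbp4 0.055, Ccn2 0.046, Yap1 0.023; no filter, Cdc20 0.0063, Tpx2 0.015; DESeq2, Tubb5 -0.011, E2f4 -0.0070. Without wild-type 2 and knockout 2 they were Mcm6 -0.028, Rrm1 -0.091, Ccna2 0.10, Ube2c 0.34, Tubb5 -0.11. Without wild-type 6 as well they were Foxm1 -0.22, Rrm1 -0.056, Ccna2 0.40, Birc5 0.55, Ube2c 0.70, Anln -0.32, Mki67 -0.0049, Rpa1 0.12, Pttg1 0.18, Ccnd3 0.074, Cdk4 0.11, Rbbp4 0.016, Gadd45g 0.22, Ccn2 0.019, Ccn1 -0.012, Cdkn1b -0.21, Cdkn1c -0.11. With the replicate block they were Mcm6 -0.0040, Pcna -0.044, Ccna2 0.30, Birc5 0.27, Ube2c 0.0025, Tpx2 0.083, Rpa1 0.35, Tubb5 -0.057, Cdk4 0.041, Rbbp4 0.031, Ccn2 0.15, Yap1 0.072, Cdkn1b -0.041, Cdkn1c -0.68. With 1 heart left out, these genes took both signs, with a lowest and highest log2 fold change of: Ccne1 -0.60 to 1.95, E2f1 -1.37 to 1.89, Foxm1 -1.59 to 2.07, Mcm6 -0.84 to 0.89, Mcm7 -0.77 to 0.13, Pcna -0.32 to 0.48, Rrm1 -0.68 to 0.61, Rrm2 -1.47 to 2.36, Tk1 -2.78 to 1.31, Ccna2 -2.80 to 2.85, Ccnb2 -2.17 to 3.08, Cdk1 -2.91 to 3.04, Aurkb -2.58 to 2.64, Plk1 -1.92 to 2.66, Birc5 -3.05 to 2.80, Bub1b -1.66 to 1.92, Cdc20 -2.13 to 1.71, Ube2c -2.98 to 3.06, Prc1 -2.17 to 3.39, Tpx2 -2.72 to 2.61, Anln -2.20 to 2.39, Mki67 -2.46 to 2.70, Top2a -2.52 to 2.98, Rpa1 -0.23 to 0.10, Pttg1 -0.43 to 0.095, Tubb5 -0.83 to 0.72, Tuba1c -0.69 to 0.96, Cdk4 -0.44 to 0.10, E2f6 -0.056 to 0.36, Rbbp4 -0.12 to 0.021, E2f4 -0.069 to 0.11, Ccng1 -0.083 to 0.36, Gadd45g -1.36 to 0.70, Ccn2 -1.18 to 1.06, Yap1 -0.16 to 0.11, Cdkn1b -0.099 to 0.44, Cdkn1c -0.31 to 0.73. The cause of these changes beyond the hearts removed was not tested. Depth limits the low hearts: the 22 members summed for mitosis other than Cenpf rest on at most 39 reads in any of the 6, and Mki67 and Top2a on at most 64 and 42.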
